A study of Glycine max with 30 samples.

Results

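The cellular glucan metabolic process is the Gene Ontology (GO) term under which enzymes that build and remodel the glucose polymers of the plant cell wall are grouped. In developing soybean (*Glycine max*) seeds, 33 of the 54175 annotated genes were taken as its members. They are all the genes that the deposited GO outputs, which were made from the differentially expressed genes (DEGs) at 1 % false discovery rate (FDR) of each stage, list under this term at any stage, together with the cellulose synthase gene Glyma12g36570 (CESA), which was among them in any case. The members were thus chosen by the difference between the lines at the stages where they are listed, and the values at those stages are given below as a description and not as a test. The lists held 17 members at stage 1, 18 at stage 2, 6 at each of stages 3 and 5 and none at stage 4, where the term had no entry. Of the 33, 26 were listed at only 1 stage.

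The mutant line, *3mlpa*, has low phytic acid and is homozygous for mutations in 3 genes (*mips1/mrp-l/mrp-n*). The line 3MWT, with normal phytic acid, has the non-mutant alleles of all 3 (MIPS1/MRP-L/MRP-N). Both are recombinant inbred lines of 1 cross, between a parent with the *mips1* mutation and CX-1834, so each genotype is represented by a single line, and other alleles that segregated in the cross cannot be told apart from the 3 mutations. RNA was sequenced from pools of whole seeds, with cotyledons, endosperm and seed coat together, at 2 to 4 mm (stage 1), 4 to 6 mm (stage 2), 6 to 8 mm (stage 3), 8 to 10 mm (stage 4) and 10 to 12 mm (stage 5) seed length, with 3 replicate pools per line and stage, and p-values measure the spread between these pools.

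Cellulose synthases are plasma membrane enzymes that polymerise glucose from UDP-glucose into the chains of cellulose microfibrils. Xyloglucan endotransglucosylase/hydrolases (XETs) act outside the cell, where they cut xyloglucan, the hemicellulose that coats and links the microfibrils, and rejoin the cut end to another xyloglucan or to water. In growing plant tissues the first group makes the load-bearing part of the wall and the second remodels the network around it. The product of MIPS1 makes the precursor of *myo*-inositol, which is used both for phytic acid and, after oxidation, for wall polysaccharides, and the MRP genes encode ATP-binding cassette transporters.

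By the annotation in the GO outputs, 12 members are cellulose synthases, 16 are XETs and 5 have only the broader annotation of UDP-glucosyltransferases. All 16 XETs and none of the others are also annotated to the cell wall, the apoplast and the extracellular region. Of the 5 with the broader annotation, Glyma18g13105 is in the study's own list of cellulose synthase genes, and Glyma18g13105 and Glyma08g16660 are also annotated to the plasma membrane and to a protein complex. The 12 cellulose synthases are annotated to a membrane, and none of them to the plasma membrane. The members lie on 15 chromosomes by their identifiers, 6 of them on chromosome 13, 2 on chromosome 19 with MRP-L, 1 on chromosome 3 with MRP-N and 1 on chromosome 11 with MIPS1. Positions within the chromosomes and gene models are not in the files, so promoters and proteins are not shown. The only designed sequences for a member are the primers of the study for Glyma12g36570 on chromosome 12, with which its transcript was also measured by quantitative PCR. They are shown to identify that transcript (5′ to 3′, all in lower case since no part is singled out).
CESA-F: gcttatgtgaacaccaccatctatc
CESA-R: cttattagtcagcagacagacagca

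The reads counted on genes numbered 14150244 to 29476755 per library. The fewest were in 3MWT replicate 2 of stage 1, which also had the largest share of reads in no annotated feature, 29.7 %. The libraries farthest from the others of their own group were 3MWT replicate 2 of stage 1, with a mean correlation of 0.947, and *3mlpa* replicate 3 of stage 5, replicate 3 of stage 4 and replicate 1 of stage 3, with 0.950, 0.951 and 0.952, against a median of 0.979 over all 30 libraries. The alignments set aside as not unique numbered 4298110 to 8643432 per *3mlpa* library and 9060479 to 50575458 per 3MWT library, without overlap, and the part of this difference in the members' values was not tested. MRP-L and MRP-N carry point mutations, so their counts do not check the labels. Their levels were 40.7 to 161 CPM (counts per 1000000 counts of the library) for MRP-L and 25.6 to 177 CPM for MRP-N over the 15 *3mlpa* libraries, against 27.8 to 145 CPM and 22.0 to 140.0 CPM over the 15 3MWT libraries. Markers of the seed tissues were not examined here. In whole seeds, fewer cells of a type and less RNA per cell cannot be told apart.

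Expression is given as CPM after TMM normalization over all 30 libraries, always for replicates 1, 2 and 3 in this order. Log2 fold changes are given for *3mlpa* over 3MWT with their standard errors (SE), from edgeR's quasi-likelihood test on the 6 libraries of a stage. Genes with an adjusted p (Benjamini-Hochberg, over all genes tested at that stage) of 0.01 or less were called. CPM depends on transcript length, so levels were compared between libraries and not between genes.

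Most members had higher expression in *3mlpa* in the young seeds, while in the oldest seeds as many members were lower as higher. Most of them were chosen by the difference between the lines at stages 1 to 3. This pattern over all members is thus a description and not a test, and the medians over members not listed are given below. For stages 1 to 5 in order, the members tested had median log2 fold changes of 0.99, 1.47, 0.85, 0.10 and 0.05, and all genes had medians of -0.00, 0.01, 0.02, 0.03 and 0.01. At stages 1 and 2, 28 members had a positive log2 fold change, against 5 and 4 with a negative one, while at stage 5 there were 15 of each. No median changed when members with 0 counts in a line were set to their bound.

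Among the listed members, a positive log2 fold change was found for 16 of 17 at stage 1, for 17 of 18 at stage 2, for all 6 at stage 3 and for 4 of 6 at stage 5. Of these 47 pairs of a member and a stage, 26 were called higher and 1 was called lower in *3mlpa*, and the other 20 were not called. Over all members, 6 were called higher and 0 lower at stage 1, where 0.572 % of all genes were called higher and 0.325 % lower. At stage 2, 19 were called higher and 1 lower, beside 7.68 % and 6.56 % of all genes. The calls at stage 3 were 2 higher and 0 lower, beside 0.637 % and 0.591 %, those at stage 4 were 1 and 0, beside 0.355 % and 0.641 %, and those at stage 5 were 3 and 0, beside 0.566 % and 1.34 %. At stages 1, 3, 4 and 5, where none was called lower by edgeR, 1, 3, 2 and 8 members had a negative log2 fold change with an unadjusted p under 0.05, and DESeq2 called 1, 0, 0 and 2 lower. Of all genes, DESeq2 called 1775 of 42451, 1271 of 40951, 1125 of 39918 and 1839 of 39213 lower at these stages. An unadjusted p under 0.05 by edgeR, in either direction, was found for 12702 of 42457, 12226 of 40971, 9578 of 39956 and 11937 of 39253 genes. The lists were made from these same contrasts, and nothing is read from these counts. Altogether, 23 members were called at 1 or more stages and 10 at none.

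At stages where a member was not listed, its values come from other libraries than those that chose it. Where the term had an entry, the pairs not listed are by construction pairs that passed no threshold in the study. At stage 4 the term had no entry, so a member could not be listed there even if it had passed the threshold. The authors' DEGs were not used to check this. At stage 1, none of the 16 members not listed there was called, and 10 of them had an unadjusted p under 0.05 (29.9 % of all genes did), while DESeq2 called 2 (9.54 % of all genes). All 3 *3mlpa* libraries lay above all 3 3MWT libraries for 10 of these 16 and below for 0, where 17.6 % and 18.5 % of all genes were above and below. At stage 2, 3 of the 14 tested members not listed were called, all higher in *3mlpa*, which is 21.4 % beside the 7.68 % of all genes. The lines did not overlap for 9 members not listed at stage 2 with *3mlpa* above and for 2 with *3mlpa* below, where 21.7 % and 24.6 % of all genes were above and below. At stage 3, none of 26 was called and 20 had an unadjusted p under 0.05, beside 29.8 % of all genes, with 7 called by DESeq2, beside 6.68 %. The libraries lay apart at stage 3 for 14 of the 27 members not listed with *3mlpa* above and for 2 with *3mlpa* below, beside 17.5 % and 17.1 % of all genes.

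At stage 4, where no member was listed, 1 of 30 was called, the XET Glyma13g00280. The libraries lay apart for 8 of 33 members with *3mlpa* above and 2 with *3mlpa* below, beside 16.0 % and 15.3 % of all genes. At stage 5, 1 of 24 members not listed was called, the same XET, and 5 of 27 had *3mlpa* above and 6 had *3mlpa* below, beside 18.3 % and 18.0 % of all genes. Over the members not listed, the medians for stages 1 to 5 in order were 0.79, 0.49, 0.71, 0.10 and -0.09 on the log2 scale.

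**Figure D1:**
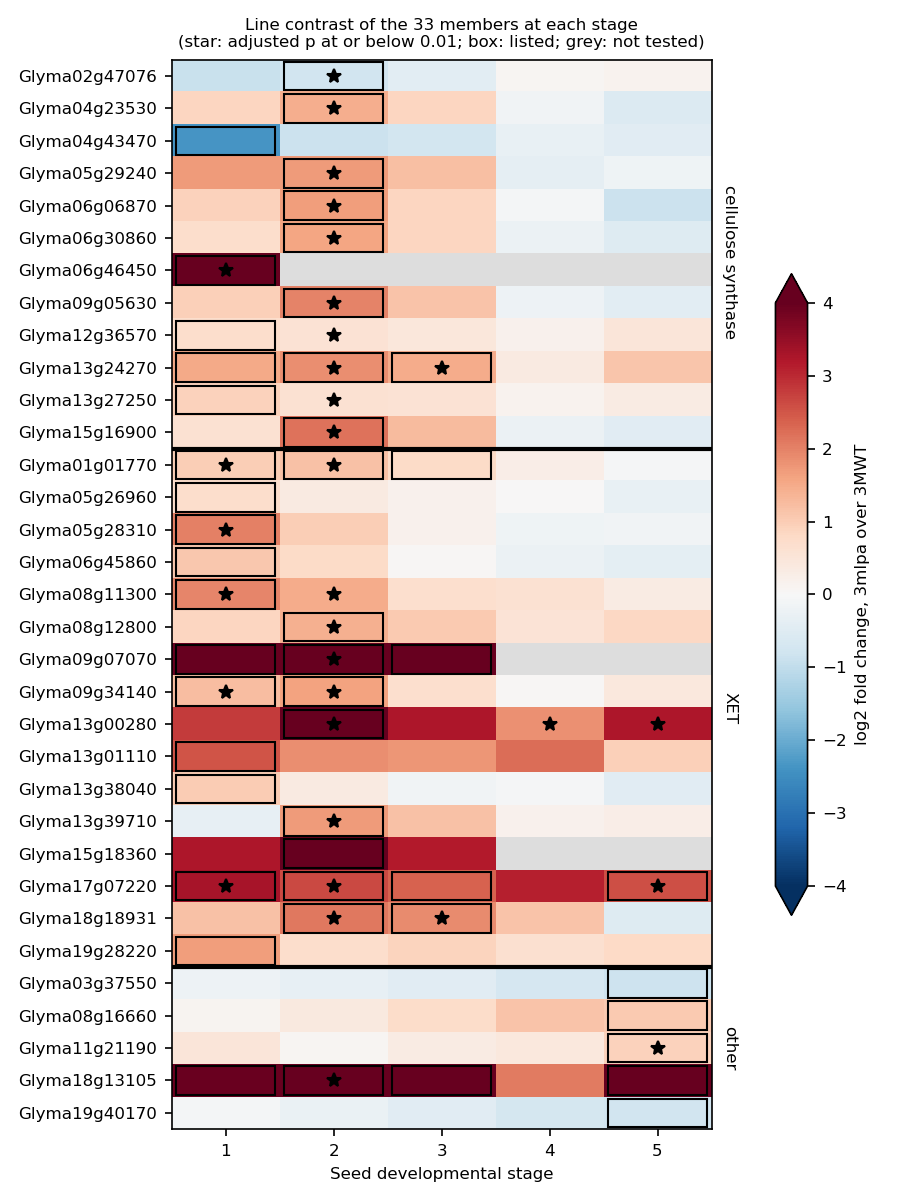
Log2 fold change of *3mlpa* over 3MWT (colour, scale ends at -4 and 4) of the 33 members (down) at the 5 seed stages (across). Stars mark calls at an adjusted p at or below 0.01, boxes mark the stages where a member was listed, and grey marks members under 10 counts. For Glyma09g07070 at stages 2 and 3 and Glyma15g18360 at stage 2 there were 0 counts in 3MWT and the colour shows the direction alone. The cellulose synthases are mostly red at stages 1 to 3 and pale or blue at stages 4 and 5, while Glyma13g00280, Glyma17g07220 and Glyma18g13105 are red throughout.

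The number of calls rested on single libraries at every stage but stage 2. At stage 1, the 6 higher calls became 20 without 3MWT replicate 2, 5 without *3mlpa* replicate 3, 1 without *3mlpa* replicate 1 or 3MWT replicate 3, and 0 without *3mlpa* replicate 2 or 3MWT replicate 1. At stage 2 there were 15 to 19 higher calls whichever library was left out, and 13 of the 20 calls were made in all 6 of these fits. The 2 higher calls at stage 3 became 12 without *3mlpa* replicate 1, 2 without replicate 2, 1 without replicate 3 and 0 without any 1 of the 3MWT replicates. The only higher call at stage 4 became 5 without *3mlpa* replicate 3, stayed at 1 without 3MWT replicate 3 and was 0 otherwise, and the 3 at stage 5 became 7 without *3mlpa* replicate 3 and 0 otherwise. No call at stages 1, 3, 4 or 5 was made in all 6 fits without 1 library. The calls over all genes moved too. At stage 1, 243 of 42457 genes were called higher, 2113 of 41996 without 3MWT replicate 2 and 6 of 41958 without 3MWT replicate 1. At stage 3 there were 261 of 40971, and 3222 of 40379 without *3mlpa* replicate 1. Without *3mlpa* replicate 3, 142 of 39956 became 1485 of 39382 at stage 4, and 222 of 39253 became 1490 of 38567 at stage 5. Nothing about the members is read from these changes.

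Among the cellulose synthases, 7 members rose over seed growth by more than 3 log2 units in each line, and all 7 were listed at stage 2 alone. Glyma09g05630 averaged 7.51, 34.6, 65.6, 163 and 261 CPM in *3mlpa* and 3.91, 9.06, 29.8, 188 and 344 CPM in 3MWT at stages 1 to 5. The log2 fold change of stage 5 over stage 1 was 5.09 ± 0.29 in *3mlpa* and 6.47 ± 0.39 in 3MWT (edgeR's quasi-likelihood test on the 15 libraries of a line, adjusted p = 1.56e-08 and 3.7e-09). The libraries of stage 5 lay far above those of stage 1 in each line. The stages were sequenced in separate lanes, so changes over growth cannot be told apart from the lane, whereas the lines were compared within a lane.

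Within the stages, Glyma09g05630 had 31.9, 41.6 and 30.3 CPM in *3mlpa*, against 8.43, 11.1 and 7.69 CPM in 3MWT at stage 2, with a log2 fold change of 1.97 ± 0.16. Here every *3mlpa* library had over 30 CPM and no 3MWT library reached 12 CPM. At stage 1 it had 8.02, 6.13 and 8.37 CPM in *3mlpa*, against 3.45, 4.28 and 4.01 CPM in 3MWT, and at stage 3 it had 60.3, 77.3 and 59.1 CPM in *3mlpa*, against 19.0, 24.2 and 46.3 CPM in 3MWT. The lines were again apart at both stages, although neither difference was called (log2 fold change 0.96 ± 0.18, adjusted p = 0.0217 and 1.13 ± 0.30, adjusted p = 0.0509). At stage 4 it had 98.5, 172 and 219.9 CPM in *3mlpa*, against 182, 110.2 and 272 CPM in 3MWT, which overlap widely, and at stage 5 it had 285, 286 and 212 CPM in *3mlpa*, against 361, 355 and 316 CPM in 3MWT, with every *3mlpa* library below every 3MWT library (log2 fold change -0.42 ± 0.14, adjusted p = 0.0828, not called).

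The same order of the lines was seen for Glyma15g16900, the member with the steepest rise in both lines. Its expression averaged 1.94, 8.15, 20.1, 51.2 and 97.2 CPM in *3mlpa* and 1.26, 1.87, 8.30, 60.1 and 132 CPM in 3MWT at stages 1 to 5, a log2 change over growth of 5.62 ± 0.35 in *3mlpa* (adjusted p = 3.23e-08) and 6.69 ± 0.38 in 3MWT (adjusted p = 2.78e-09). At stage 2 it had 7.81, 9.76 and 6.89 CPM in *3mlpa*, against 2.04, 2.22 and 1.36 CPM in 3MWT, a log2 fold change of 2.18 ± 0.21. At stage 5 it had 112, 111 and 68.9 CPM in *3mlpa*, against 142, 129.5 and 125 CPM in 3MWT, with *3mlpa* below 3MWT in all libraries and no call (adjusted p = 0.126).

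At stage 2, Glyma06g30860 had 34.4, 43.1 and 30.8 CPM in *3mlpa*, against 14.2, 14.0 and 8.97 CPM in 3MWT, and at stage 5 it had 267, 289.7 and 179.8 CPM in *3mlpa*, against 347, 331 and 349.7 CPM in 3MWT. At stage 2, Glyma04g23530 had 16.2, 18.8 and 12.6 CPM in *3mlpa*, against 5.12, 7.81 and 4.99 CPM in 3MWT, and at stage 5 it had 97.9, 111 and 88.4 CPM in *3mlpa*, against 144, 141 and 139 CPM in 3MWT. At stage 2, Glyma06g06870 had 26.8, 33.3 and 24.1 CPM in *3mlpa*, against 9.95, 11.8 and 5.54 CPM in 3MWT, and at stage 5 it had 107, 122 and 79.8 CPM in *3mlpa*, against 210.0, 190.2 and 157 CPM in 3MWT. In each of these 3 the lines did not overlap at either stage, and *3mlpa* was the higher line at stage 2 and the lower line at stage 5. Their log2 fold changes were 1.58 ± 0.19, 1.45 ± 0.20 and 1.68 ± 0.24 at stage 2 and -0.50 ± 0.17, -0.54 ± 0.11 and -0.87 ± 0.17 at stage 5, where they were not called (adjusted p = 0.0901, 0.0199 and 0.0194). Without *3mlpa* replicate 3 of stage 5, Glyma04g23530 and Glyma06g06870 were called lower in *3mlpa* at that stage, with log2 fold changes of -0.46 and -0.72 (adjusted p = 0.00817 and 0.00389). Over growth the 3 rose by log2 changes of 4.62 ± 0.25, 4.61 ± 0.24 and 3.56 ± 0.26 in *3mlpa*, and by 5.83 ± 0.29, 6.02 ± 0.34 and 5.35 ± 0.45 in 3MWT.

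Glyma05g29240 rose late, averaging 0.490, 1.14, 2.59, 5.93 and 13.6 CPM in *3mlpa* and 0.149, 0.358, 1.13, 7.50 and 15.2 CPM in 3MWT at stages 1 to 5. Its stage 2 values were 1.14, 1.40 and 0.872 CPM in *3mlpa*, against 0.332, 0.444 and 0.300 CPM in 3MWT, a log2 fold change of 1.70 ± 0.31. At stages 4 and 5 the lines overlapped (log2 fold change -0.36 ± 0.35, adjusted p = 0.58 and -0.18 ± 0.15, adjusted p = 0.443).

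Compared with the course in 3MWT, the mean of *3mlpa* at stage 2 lay between the 3MWT means at stages 2 and 3 for 4 of these 7 rising genes, above the 3MWT mean at stage 3 for Glyma05g29240 and Glyma09g05630, and below the 3MWT mean at stage 2 for Glyma02g47076. The stage 2 mean was 13.3 % of the stage 5 mean in *3mlpa*, against 2.63 % in 3MWT, for Glyma09g05630, and 8.39 % against 1.42 % for Glyma15g16900. In Glyma02g47076 alone of the 7 the order was reversed, with 34.5 % in *3mlpa* against 68.4 % in 3MWT. All 7 were chosen by the difference between the lines at stage 2, so these comparisons are a description and not a test. At stage 4 the lowest 3MWT library was replicate 2 for 6 of the 7 rising genes, and the highest was replicate 3 for 5 of the 7. How many of all genes had this order was not examined.

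**Figure D2:**
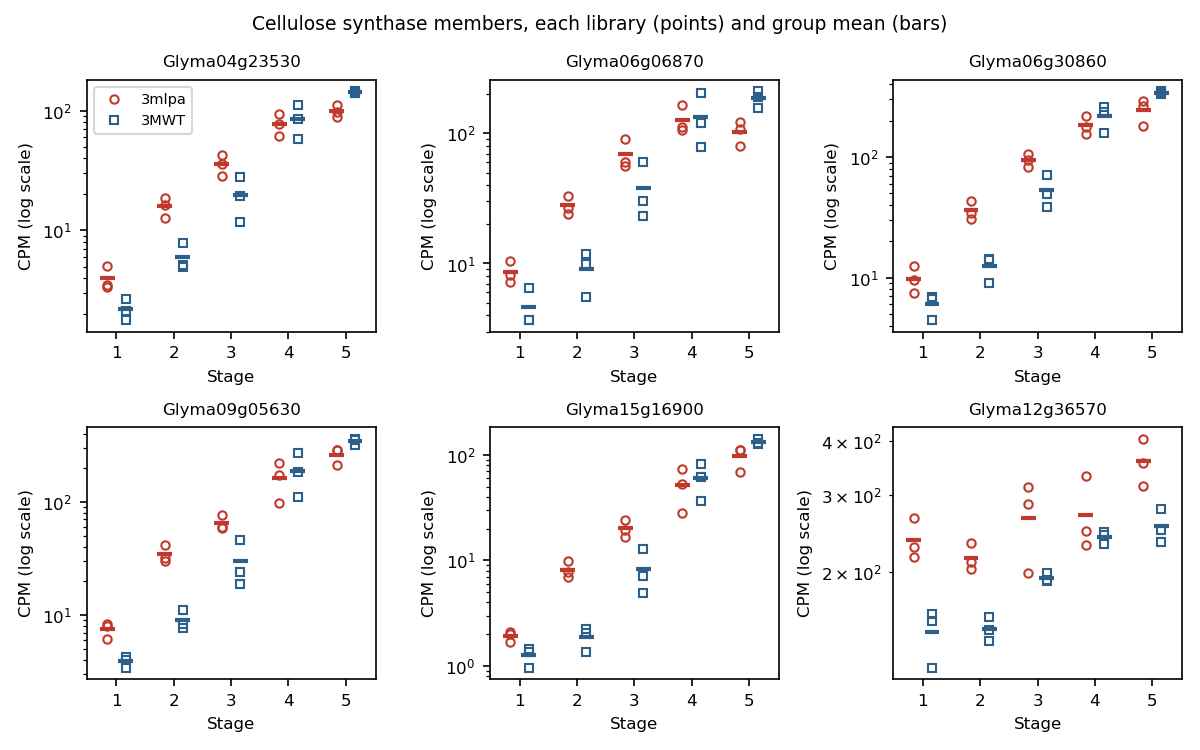
Expression (CPM, log scale) of 5 cellulose synthases that rose over seed growth and of CESA Glyma12g36570 in every library by stage, with *3mlpa* as circles to the left and 3MWT as squares to the right, and bars at the group means of 3 libraries. In the 5 rising genes *3mlpa* is above 3MWT at stage 2 and below it at stage 5, whereas Glyma12g36570 has *3mlpa* above 3MWT at stages 1, 2 and 5.

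Glyma02g47076 took the opposite course in young seeds, and it was the only member called lower in *3mlpa* at any stage. At stage 2 it had 15.7, 12.9 and 15.7 CPM in *3mlpa*, against 30.5, 26.5 and 21.0 CPM in 3MWT, with *3mlpa* below 3MWT in every library and a log2 fold change of -0.78 ± 0.14, which was called in 2 of the 6 fits without 1 library. At stage 1 it had 2.30, 0.984 and 2.09 CPM in *3mlpa*, against 1.17, 8.36 and 0.711 CPM in 3MWT, where 3MWT replicate 2 stood above the other 5 libraries. Its expression averaged 1.79, 14.8, 29.1, 41.2 and 42.9 CPM in *3mlpa* and 3.42, 26.0, 38.5, 39.2 and 38.1 CPM in 3MWT at stages 1 to 5, and it rose in both lines (log2 change 4.54 ± 0.23, adjusted p = 6.8e-09 and 3.53 ± 0.50, adjusted p = 2.08e-05).

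The other cellulose synthase listed as lower was Glyma04g43470, with 0.318, 0.454 and 0.383 CPM in *3mlpa*, against 1.60, 0.655 and 3.76 CPM in 3MWT at stage 1 (log2 fold change -2.35 ± 0.62, adjusted p = 0.0499, not called). The lines did not overlap at stage 1, the 3MWT libraries being far from each other. At stage 3, where it was not listed, *3mlpa* was again below 3MWT in all libraries and was not called. It ranged there from 3.27 to 4.14 CPM in *3mlpa*, against 5.26 to 6.68 CPM in 3MWT. It rose over growth in *3mlpa* (log2 change 3.01 ± 0.60, adjusted p = 0.000765) and was not called in 3MWT (log2 change 1.10 ± 0.46, adjusted p = 0.0552).

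CESA, Glyma12g36570, was expressed at all stages, with log2 fold changes between 0.16 at stage 4 and 0.72 at stage 1. It had 228, 216 and 265 CPM in *3mlpa*, against 154, 120.2 and 160.1 CPM in 3MWT at stage 1, where it was listed but not called (log2 fold change 0.72 ± 0.16, adjusted p = 0.0332). At stage 2, where it was not listed, it had 210.1, 203 and 233 CPM in *3mlpa*, against 157, 147 and 139 CPM in 3MWT, and it was called higher in *3mlpa* by a log2 fold change of 0.57 ± 0.08 (adjusted p = 0.00198, 5 of the 6 fits without 1 library). The lines were apart at stages 1, 2 and 5 and overlapped at stages 3 and 4. At stage 3 it had 198, 314 and 287 CPM in *3mlpa*, against 191, 190.0 and 199 CPM in 3MWT (adjusted p = 0.147). At stage 4 it had 230.3, 248 and 332 CPM in *3mlpa*, against 243, 232 and 247 CPM in 3MWT (adjusted p = 0.562), and at stage 5 it had 356, 315 and 405 CPM in *3mlpa*, against 234, 249.8 and 279 CPM in 3MWT (adjusted p = 0.0494), none of which was called. Over growth it rose in 3MWT by a log2 change of 0.82 ± 0.12 (adjusted p = 3.31e-05), while in *3mlpa* the log2 change of 0.58 ± 0.18 was not called (adjusted p = 0.0161).

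Glyma13g27250 had the lines apart at the same stages as CESA, namely 1, 2 and 5. At stage 2, where it was not listed, it had 60.0, 58.1 and 68.4 CPM in *3mlpa*, against 44.3, 43.4 and 38.5 CPM in 3MWT and was called higher in *3mlpa* (log2 fold change 0.60 ± 0.09, adjusted p = 0.00204, 5 of the 6 fits without 1 library). Over growth it rose by a log2 change of 0.59 ± 0.12 in 3MWT (adjusted p = 0.000854), and its change in *3mlpa* was -0.00 ± 0.18 (adjusted p = 0.994).

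Glyma13g24270 was the cellulose synthase with the longest lasting difference, since all *3mlpa* libraries lay above all 3MWT libraries at each of the 5 stages. Glyma13g24270 at stage 2 had 15.9, 18.2 and 20.4 CPM in *3mlpa*, against 7.25, 4.31 and 3.98 CPM in 3MWT, and at stage 3 it had 13.8, 24.0 and 16.3 CPM in *3mlpa*, against 6.70, 6.04 and 6.68 CPM in 3MWT, both of them stages where it was listed (log2 fold change 1.86 ± 0.21 and 1.48 ± 0.21). At stage 4, where it was not listed, it had 13.9, 15.9 and 17.2 CPM in *3mlpa*, against 13.0, 9.82 and 13.5 CPM in 3MWT. At stage 5, where it was not listed either, it had 33.7, 33.2 and 15.2 CPM in *3mlpa*, against 10.3, 13.8 and 13.3 CPM in 3MWT. These later differences were not called (log2 fold change 0.36 ± 0.15, adjusted p = 0.199 and 1.11 ± 0.29, adjusted p = 0.0446). It rose over growth in both lines (log2 change 1.69 ± 0.27 in *3mlpa* and 2.09 ± 0.32 in 3MWT).

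Glyma06g46450 was detected almost only in *3mlpa* seeds of stage 1. It had 85 counts over the 3 *3mlpa* libraries of that stage, against 1 count over the 3 3MWT libraries, a ratio of 69.0 with a 95 % exact counting interval from 12.0 to 2756. At each later stage either line had 4 counts or fewer, and it was not tested there. Over growth it fell in *3mlpa*, being at least 15.9-fold lower at stage 5, where it had 0 counts, against a limit of 3 counts over the group.

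More XETs fell than rose over seed growth, and more cellulose synthases rose than fell. Of the 16 XETs, 11 fell and 0 rose from stage 1 to stage 5 in *3mlpa*, where 21.6 % of all genes fell, and 5 fell and 0 rose in 3MWT, where 21.2 % of all genes fell. The 12 cellulose synthases had 9 members that rose and 1 that fell in *3mlpa*, and 10 of the 11 tested rose and 0 fell in 3MWT, where 20.7 % of all genes rose in either line. The median log2 change over growth was -1.60 for XETs and 4.05 for cellulose synthases in *3mlpa*, beside -0.09 over all genes, and -0.14 and 5.35 in 3MWT, beside -0.08. For members listed at stage 1 or 5 the libraries of that stage also chose the member, 11 XETs being listed at stage 1, so these counts are no independent support. The difference in the number of falling XETs between the lines was not tested.

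**Figure D3:**
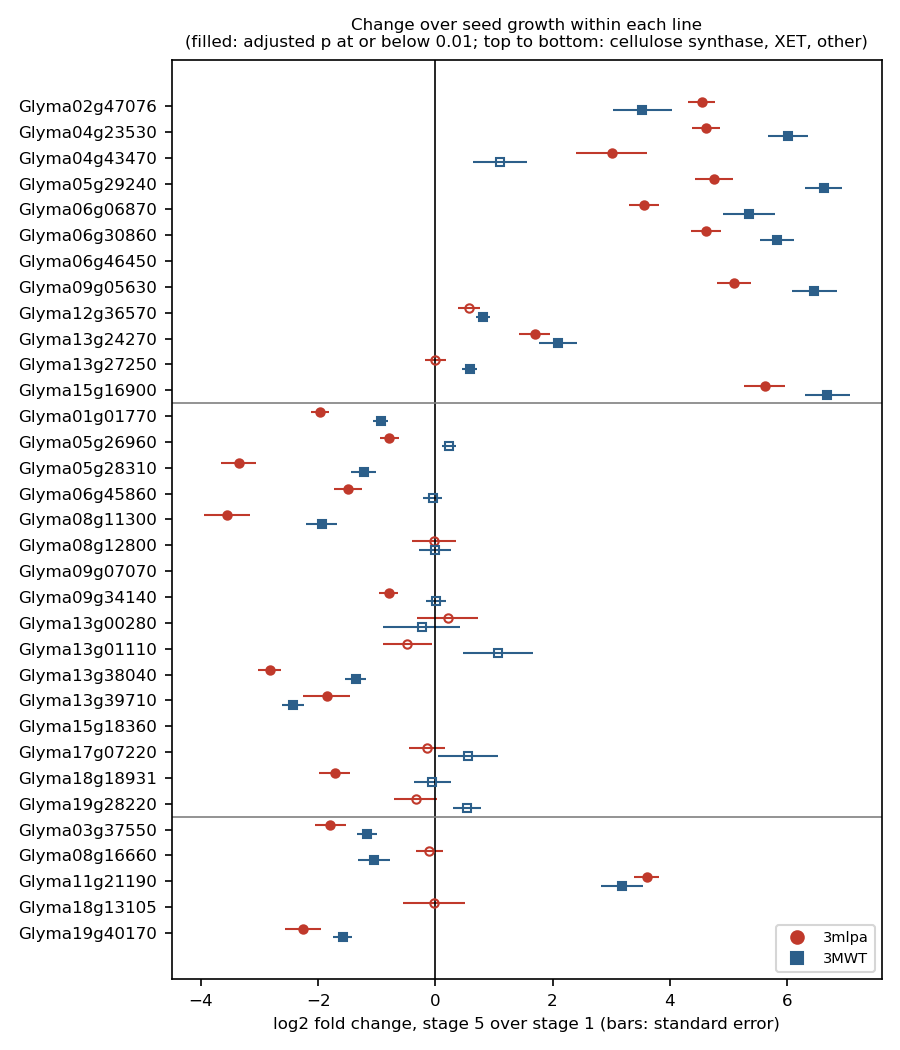
Log2 fold change of stage 5 over stage 1 (horizontal axis, bars of 1 SE) within *3mlpa* (red circles) and 3MWT (blue squares) for the members (down), filled where the adjusted p was at or below 0.01. Values with 3 counts or fewer at either stage are left out. The cellulose synthases lie mostly to the right, up to 6.69 for Glyma15g16900 in 3MWT, and the XETs mostly at or left of 0, down to -3.56 for Glyma08g11300 in *3mlpa*.

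Glyma05g28310 and Glyma08g11300 were the XETs that fell most in *3mlpa* among those with over 3 counts at both ends. Glyma05g28310 averaged 87.8, 39.1, 19.5, 9.998 and 8.75 CPM in *3mlpa* and 22.0, 20.0, 17.2, 11.3 and 9.38 CPM in 3MWT at stages 1 to 5, a log2 change of -3.36 ± 0.30 in *3mlpa* (adjusted p = 7.78e-07) and -1.22 ± 0.21 in 3MWT (adjusted p = 0.000138). At stage 1 it had 78.5, 93.7 and 91.1 CPM in *3mlpa*, against 22.8, 20.5 and 22.6 CPM in 3MWT (log2 fold change 2.01 ± 0.12), and at stage 2 it had 53.8, 30.2 and 33.2 CPM in *3mlpa*, against 20.1, 17.1 and 22.9 CPM in 3MWT. The lines were apart at both stages. At stage 2, where it was not listed, the log2 fold change of 0.99 ± 0.22 just missed the threshold (adjusted p = 0.0104), and from stage 3 on the lines overlapped.

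Glyma08g11300 had 75.0, 74.7 and 99.6 CPM in *3mlpa*, against 24.6, 14.5 and 26.1 CPM in 3MWT at stage 1 (log2 fold change 1.95 ± 0.24). At stage 2, where it was not listed, it had 56.8, 25.8 and 28.1 CPM in *3mlpa*, against 13.1, 10.3 and 16.4 CPM in 3MWT, and it was called higher in *3mlpa* (log2 fold change 1.50 ± 0.31, adjusted p = 0.00812, 2 of the 6 fits without 1 library). The lowest *3mlpa* library was above the highest 3MWT library at stages 1 to 3 and not at stages 4 and 5. Over growth it fell by log2 changes of -3.56 ± 0.39 in *3mlpa* and -1.94 ± 0.27 in 3MWT (adjusted p = 4.73e-06 and 1.5e-05).

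Glyma01g01770 and Glyma09g34140 were listed at both early stages. At stage 1, Glyma01g01770 had 54.2, 52.9 and 58.2 CPM in *3mlpa*, against 28.7, 27.5 and 27.9 CPM in 3MWT, and at stage 2 it had 37.0, 42.1 and 36.9 CPM in *3mlpa*, against 21.2, 16.8 and 14.7 CPM in 3MWT. At stage 1, Glyma09g34140 had 36.2, 29.6 and 39.4 CPM in *3mlpa*, against 15.04, 16.2 and 14.3 CPM in 3MWT, and at stage 2 it had 23.0, 26.2 and 31.4 CPM in *3mlpa*, against 12.3, 7.15 and 7.69 CPM in 3MWT. In both genes the lines were well apart at both stages, with log2 fold changes of 0.99 ± 0.10 and 1.18 ± 0.13 for Glyma01g01770 and 1.22 ± 0.13 and 1.61 ± 0.20 for Glyma09g34140. At stage 4 the lines overlapped in both (log2 fold change 0.26 ± 0.12, adjusted p = 0.229 and 0.03 ± 0.17, adjusted p = 0.936). Glyma09g34140 was apart again at stage 5, with 21.4, 22.3 and 18.0 CPM in *3mlpa*, against 15.3, 14.7 and 15.6 CPM in 3MWT, which was not called (log2 fold change 0.41 ± 0.11, adjusted p = 0.0525). Glyma01g01770 fell over growth in both lines (-1.96 ± 0.16 in *3mlpa* and -0.94 ± 0.12 in 3MWT on the log2 scale), whereas Glyma09g34140 fell in *3mlpa* (-0.80 ± 0.16, adjusted p = 0.000821) and had a log2 change of 0.00 ± 0.17 in 3MWT (adjusted p = 0.987).

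Glyma13g39710 was the only XET whose lines overlapped at stage 1. It had 36.7, 37.5 and 40.2 CPM in *3mlpa*, against 60.8, 36.4 and 46.0 CPM in 3MWT at stage 1 (log2 fold change -0.31 ± 0.18, adjusted p = 0.287), and 24.5, 33.5 and 29.9 CPM in *3mlpa*, against 9.61, 10.8 and 7.17 CPM in 3MWT at stage 2, where it was listed (log2 fold change 1.72 ± 0.16). Its mean at stage 2 was 29.3 CPM in *3mlpa*, against 9.19 CPM in 3MWT, after 38.1 CPM in *3mlpa* and 47.7 CPM in 3MWT at stage 1. It fell over growth in both lines (log2 change -1.86 ± 0.41 and -2.43 ± 0.19).

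Glyma13g38040 also fell in both lines, with means of 70.7, 42.6, 29.6, 20.1 and 10.1 CPM in *3mlpa* and 35.2, 34.1, 32.5, 20.9 and 13.7 CPM in 3MWT at stages 1 to 5 (log2 change -2.83 ± 0.19, adjusted p = 5.9e-08 and -1.36 ± 0.18, adjusted p = 8.39e-06). The lines were apart at stage 1, with 74.3, 75.1 and 62.7 CPM in *3mlpa*, against 37.1, 27.7 and 40.9 CPM in 3MWT and no call (adjusted p = 0.0163), and overlapped from stage 2 on. Glyma05g26960 and Glyma06g45860 had log2 fold changes of 0.72 ± 0.13 and 1.06 ± 0.17 at stage 1, where they were listed but not called (adjusted p = 0.0192 and 0.0161), and they fell over growth in *3mlpa* by log2 changes of -0.79 ± 0.16 and -1.49 ± 0.24, but were not called in 3MWT (0.23 ± 0.11, adjusted p = 0.102 and -0.05 ± 0.16, adjusted p = 0.82).

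**Figure D4:**
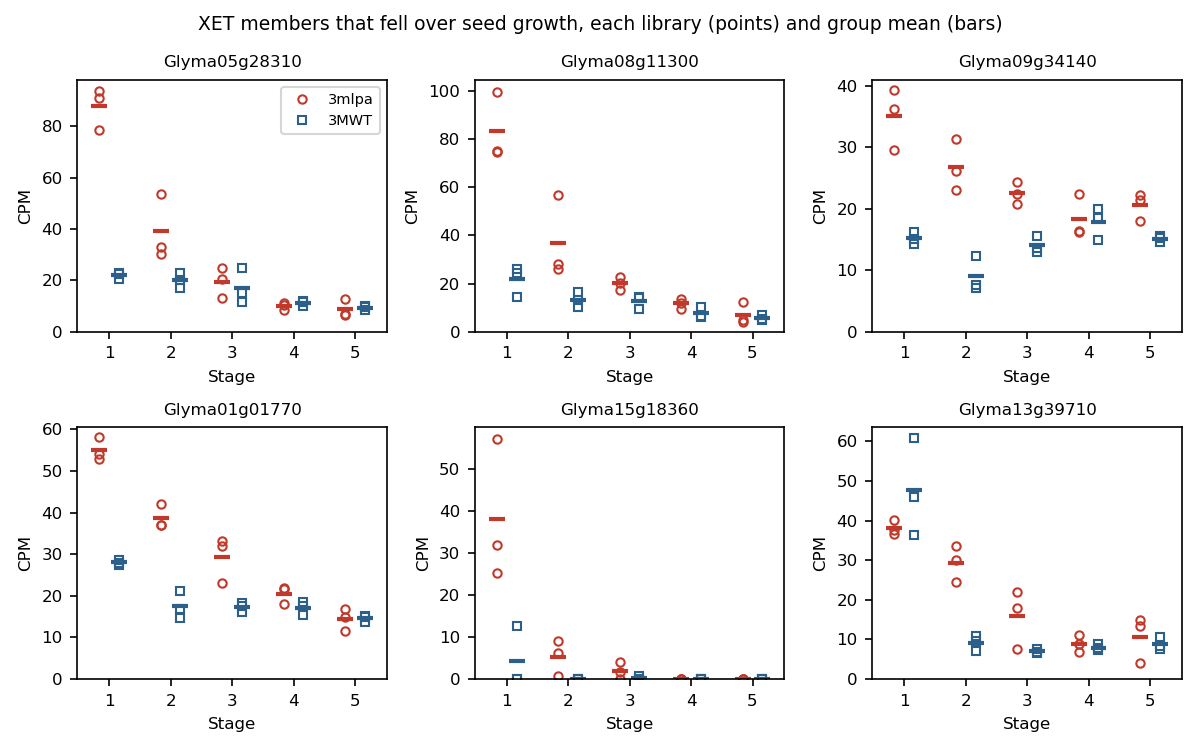
Expression (CPM) of 6 XETs called lower at stage 5 than at stage 1 in *3mlpa*, in every library by stage, with *3mlpa* as circles to the left and 3MWT as squares to the right, and bars at the group means of 3 libraries. At stage 2 *3mlpa* is above 3MWT in all 6 genes, at stage 4 the lines overlap in all 6, and at stage 5 they are apart again in Glyma09g34140.

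In 4 XETs the lines were apart at stage 4 as well as in young seeds. At stage 1, Glyma13g00280 had 99.7, 75.8 and 165 CPM in *3mlpa*, against 3.70, 41.1 and 4.87 CPM in 3MWT. At stage 2 it had 60.7, 50.2 and 93.1 CPM in *3mlpa*, against 4.88, 3.11 and 3.44 CPM in 3MWT, and at stage 3 it had 45.3, 222 and 204 CPM in *3mlpa*, against 30.2, 11.7 and 8.40 CPM in 3MWT. At stage 4 it had 69.9, 62.4 and 69.4 CPM in *3mlpa*, against 22.6, 21.3 and 12.9 CPM in 3MWT, and at stage 5 it had 173, 174 and 52.6 CPM in *3mlpa*, against 12.2, 15 and 14.2 CPM in 3MWT. All *3mlpa* libraries were above all 3MWT libraries at each stage, and the libraries that stood nearest to the other line were 3MWT replicate 2 at stage 1, *3mlpa* replicate 1 at stage 3 and *3mlpa* replicate 3 at stage 5, the same that were far from their own groups over all genes. This did not hold at stage 4, where *3mlpa* replicate 3 was far from its group over all genes. There *3mlpa* replicate 2, with 62.4 CPM, was the *3mlpa* library nearest to 3MWT.

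Glyma13g00280 was listed only at stage 2 (log2 fold change 4.20 ± 0.27). It was called higher in *3mlpa* at stages 4 and 5, by log2 fold changes of 1.82 ± 0.19 (adjusted p = 0.00316, 2 of the 6 fits without 1 library) and 3.24 ± 0.42 (adjusted p = 0.00544, 1 of 6). It was not called at stages 1 and 3, with 2.80 ± 0.87 (adjusted p = 0.0764) and 3.23 ± 0.66 (adjusted p = 0.0247). Without 3MWT replicate 2 the log2 fold change at stage 1 was 4.75 (adjusted p = 0.000236), and without *3mlpa* replicate 1 that at stage 3 was 3.67 (adjusted p = 0.00074). It was not called over growth in either line (log2 change 0.21 ± 0.52 in *3mlpa* and -0.24 ± 0.66 in 3MWT, adjusted p = 0.752 and 0.783).

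At stage 1, Glyma17g07220 had 3.43, 3.03 and 4.11 CPM in *3mlpa*, against 0.284, 0.403 and 0.406 CPM in 3MWT. At stage 2 it had 4.58, 2.37 and 2.38 CPM in *3mlpa*, against 0.710, 0.444 and 0.409 CPM in 3MWT, and at stage 3 it had 3.23, 3.36 and 2.89 CPM in *3mlpa*, against 0.745, 0.824 and 0.223 CPM in 3MWT. At stage 4, the only stage where it was not listed, it had 2.48, 1.32 and 3.47 CPM in *3mlpa*, against 0.246, 0.395 and 0.146 CPM in 3MWT, and at stage 5 it had 3.71, 2.93 and 3.14 CPM in *3mlpa*, against 0.407, 0.783 and 0.396 CPM in 3MWT. No 3MWT library reached 1 CPM and no *3mlpa* library was below it. The log2 fold changes were 3.29 ± 0.28, 2.64 ± 0.36, 2.37 ± 0.37, 3.12 ± 0.50 and 2.58 ± 0.33 at stages 1 to 5, and those at stages 3 and 4 were not called (adjusted p = 0.0114 and 0.0164). No change over growth was called in either line (log2 change -0.14 ± 0.31 in *3mlpa*, adjusted p = 0.717, and 0.56 ± 0.51 in 3MWT, adjusted p = 0.373).

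Glyma13g01110 had few counts, between 41 and 101 per stage over the 3 *3mlpa* libraries, against 13 to 20 over the 3 3MWT libraries. The lines were apart at stages 1 to 4, and at stage 4, where it was not listed, it had 1.44, 1.17 and 1.33 CPM in *3mlpa*, against 0.246, 0.226 and 0.366 CPM in 3MWT (log2 fold change 2.23 ± 0.35, adjusted p = 0.0158, not called). Glyma18g18931 was also apart at stages 1 to 4, with 10.4, 9.85 and 7.15 CPM in *3mlpa*, against 1.52, 2.18 and 2.67 CPM in 3MWT at stage 2 and 12.8, 8.62 and 10.9 CPM in *3mlpa*, against 2.93, 2.43 and 3.28 CPM in 3MWT at stage 3, where it was listed (log2 fold change 2.11 ± 0.22 and 1.90 ± 0.20). At stage 5 the lines overlapped and the log2 fold change was -0.50 ± 0.30 (adjusted p = 0.293). It fell over growth in *3mlpa* (log2 change -1.72 ± 0.27, adjusted p = 9.22e-05) and was not called in 3MWT (-0.05 ± 0.32, adjusted p = 0.904).

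Glyma18g13105, with the broader UDP-glucosyltransferase annotation, had 82, 87, 57, 28 and 45 counts over the 3 *3mlpa* libraries at stages 1 to 5, against 4, 4, 2, 5 and 1 counts over the 3 3MWT libraries. The lines were apart at each stage, most narrowly at stage 5, with 1.39, 1.53 and 0.114 CPM in *3mlpa*, against 0, 0 and 0.0659 CPM in 3MWT. The ratio was 23.5 at stage 3 (95 % exact counting interval 6.21 to 198) and 43.5 at stage 5 (7.41 to 1754). It was listed at stages 1, 2, 3 and 5 and called only at stage 2 (adjusted p = 0.0104, 0.0154 and 0.0415 at stages 1, 3 and 5, where the test over replicates made no call). At stage 4, where it was not, the log2 fold change was 2.07 ± 0.56 (adjusted p = 0.0748, not called). Reads that match near-identical copies equally well are not in the counts, so the levels of this and other members with such copies are uncertain.

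Over the 5 stages together, 4 members had all *3mlpa* libraries above all 3MWT libraries at every stage, namely Glyma13g00280, Glyma17g07220, Glyma13g24270 and Glyma18g13105. Of all genes tested at every stage, 1.86 % did so. All 4 were chosen through the difference between the lines at 1 or more of these stages. The log2 fold change had the same sign at all 5 stages for 10 of the 21 members that were tested at every stage and called at 1 or more, beside 62.6 % of all genes of this kind.

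**Figure D5:**
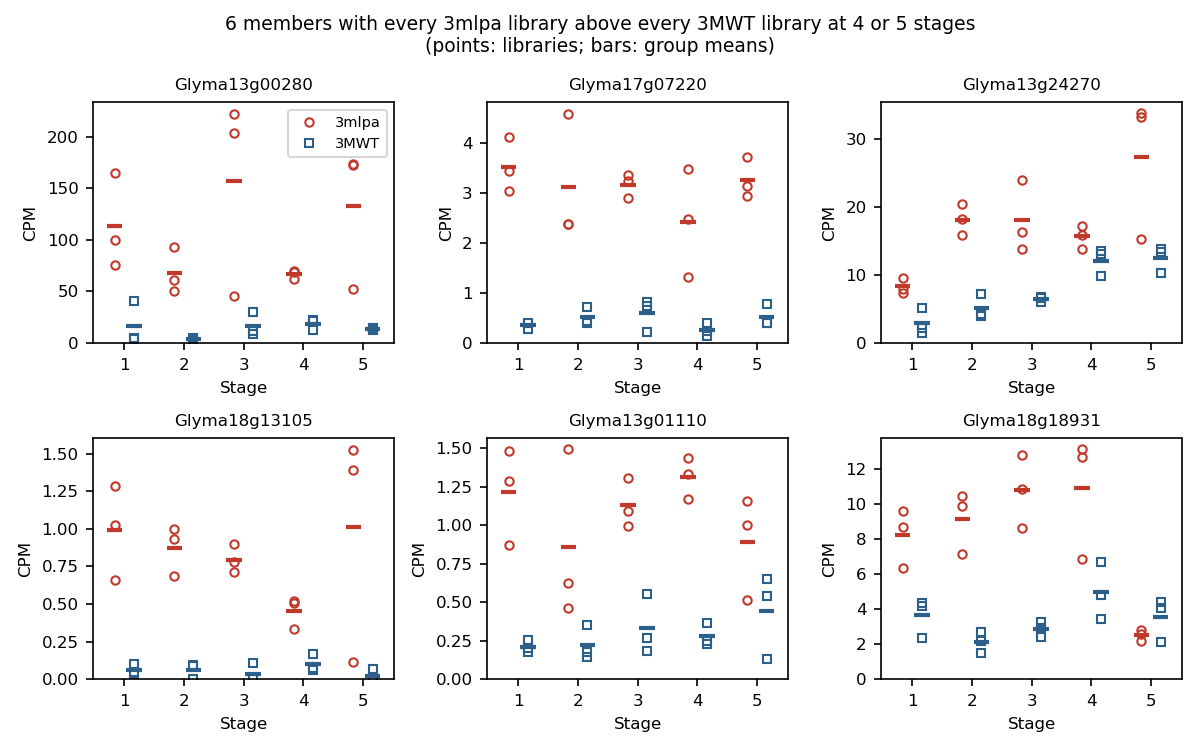
Expression (CPM) of 6 of the 7 members with every *3mlpa* library above every 3MWT library at 4 or 5 stages, in every library by stage, with *3mlpa* as circles to the left and 3MWT as squares to the right, and bars at the group means of 3 libraries. In Glyma17g07220 all 3MWT libraries are under 1 CPM and all *3mlpa* libraries above it, and in Glyma18g18931 the lines come together at stage 5.

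For 2 XETs the 3MWT libraries of a stage held no count. Glyma09g07070 had 90 counts over the 3 *3mlpa* libraries of stage 2 and 109 over those of stage 3, against 0 in 3MWT at both, so that it was at least 24.1-fold higher at stage 2 and at least 29.9-fold higher at stage 3 against a limit of 3 counts over the group. The 109 counts at stage 3 came from replicates 2 and 3, and *3mlpa* replicate 1 had 0, so the lines overlapped there. The difference was called at stage 2 and not at stage 3 (adjusted p = 0.0868). At stage 1 it had 3.22, 4.54 and 4.50 CPM in *3mlpa*, against 0, 0.504 and 0 CPM in 3MWT, with the 3MWT counts all in replicate 2 and no call (adjusted p = 0.0199). Over stages 4 and 5 it had only 2 counts in *3mlpa*, both at stage 5, and none in 3MWT, and it fell over growth in *3mlpa*, where stage 1 exceeded stage 5 by a ratio of 95.5 (95 % exact counting interval 26.2 to 792).

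Glyma15g18360 had 25.2, 31.9 and 57.0 CPM in *3mlpa*, against 0.0355, 12.6 and 0 CPM in 3MWT at stage 1, so that 3MWT replicate 2 was far above the other 3MWT replicates. At stage 2 it had 538 counts over the 3 *3mlpa* libraries, against 0 over the 3 3MWT libraries, which is at least 144-fold higher against a limit of 3 counts over the group. The *3mlpa* libraries of that stage ran from 0.623 to 9.13 CPM, and the difference was not called (adjusted p = 0.0112). At stage 3 it had 0, 3.94 and 1.76 CPM in *3mlpa*, against 0.638, 0 and 0 CPM in 3MWT, and only 1 count was found in *3mlpa* and none in 3MWT over stages 4 and 5. It fell over growth in *3mlpa*, being at least 597-fold lower at stage 5, and the fall in 3MWT, where 3MWT replicate 2 held nearly all the counts of stage 1, was not called.

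The remaining XETs, Glyma08g12800 and Glyma19g28220, had the lines apart at stages 1 to 3 and were not called over growth in either line. Glyma08g12800 had 4.58, 4.46 and 4.97 CPM in *3mlpa*, against 2.08, 1.46 and 1.75 CPM in 3MWT at stage 2, where it was listed (log2 fold change 1.43 ± 0.16), and Glyma19g28220 had 6.11, 6.74 and 3.94 CPM in *3mlpa*, against 1.96, 1.61 and 1.67 CPM in 3MWT at stage 1, where it was listed but not called (log2 fold change 1.68 ± 0.25, adjusted p = 0.0125).

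The 4 other members with the broader UDP-glucosyltransferase annotation were listed only at stage 5 and did not share a course. Glyma11g21190 had 77.6, 69.5 and 89.2 CPM in *3mlpa*, against 39.2, 41.4 and 43.1 CPM in 3MWT at stage 5 (log2 fold change 0.91 ± 0.12). At stage 2 its lines overlapped, with 34.7, 32.0 and 37.9 CPM in *3mlpa*, against 35.0, 30.9 and 34.7 CPM in 3MWT (log2 fold change 0.08 ± 0.09, adjusted p = 0.499). At stages 3 and 4 *3mlpa* was above 3MWT in all libraries without a call (log2 fold change 0.34 ± 0.14, adjusted p = 0.151 and 0.43 ± 0.15, adjusted p = 0.143). It rose over growth in both lines, by 3.61 ± 0.22 in *3mlpa* and 3.19 ± 0.35 in 3MWT on the log2 scale (adjusted p = 2.49e-08 and 1.55e-06).

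Glyma08g16660 had 9.06, 9.58 and 8.54 CPM in *3mlpa*, against 4.06, 4.97 and 3.15 CPM in 3MWT at stage 4, where it was not listed and the lines were apart (log2 fold change 1.15 ± 0.18, adjusted p = 0.0151, not called). At stage 5 it had 6.02, 6.96 and 12.8 CPM in *3mlpa*, against 2.78, 3.20 and 6.40 CPM in 3MWT (log2 fold change 1.04 ± 0.38, adjusted p = 0.111, not called). It fell over growth in 3MWT (log2 change -1.05 ± 0.27, adjusted p = 0.00418), though in only 2 of the 6 fits without 1 library and with stages 1 and 5 overlapping, and it was not called in *3mlpa* (-0.11 ± 0.23, adjusted p = 0.72).

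Glyma03g37550 and Glyma19g40170 were lower in *3mlpa* in log2 fold change at all 5 stages, and neither was called at any. Glyma03g37550 had 12.2, 20.3 and 8.62 CPM in *3mlpa*, against 29.1, 25.8 and 17.4 CPM in 3MWT at stage 5 (log2 fold change -0.84 ± 0.30), and at stage 4, where it was not listed, it had 30.9, 26.7 and 18.0 CPM in *3mlpa*, against 41.8, 35.4 and 43.4 CPM in 3MWT (log2 fold change -0.67 ± 0.18, adjusted p = 0.0762). Glyma19g40170 had 23.0, 20.6 and 12.7 CPM in *3mlpa*, against 31.3, 28.5 and 32.7 CPM in 3MWT at stage 4 (log2 fold change -0.71 ± 0.19, adjusted p = 0.0747). For both, *3mlpa* was below 3MWT in all libraries at stage 4 and the lines overlapped at stage 5. Both were highest at stage 2 and fell from stage 1 to stage 5, Glyma03g37550 by log2 changes of -1.79 ± 0.27 in *3mlpa* and -1.16 ± 0.17 in 3MWT and Glyma19g40170 by -2.27 ± 0.31 in *3mlpa* and -1.58 ± 0.16 in 3MWT.

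Over all members, 24 were called between stages 1 and 5 in *3mlpa*, 10 higher and 14 lower at stage 5, and 19 in 3MWT, 11 higher and 8 lower, beside 20.7 % of all genes called higher and 21.6 % called lower in *3mlpa* and 20.7 % and 21.2 % in 3MWT. In both lines, 9 members were higher and 7 were lower at stage 5, and no member was called in opposite directions. The stage with the highest mean was the same in both lines for 20 members, earlier in *3mlpa* for 9 and later in *3mlpa* for 4. In *3mlpa*, 12 members were highest at stage 1 and 11 at stage 5, against 8 and 11 in 3MWT. The highest stage was not counted over all genes, and most members were chosen by higher values in *3mlpa* at stages 1 to 3. Nothing is therefore read from the counts of the highest stage.

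The GO outputs list 42 further genes under terms of the cell wall or of polysaccharides, starch, pectin or glucan that are not members, and they too were chosen from DEGs. The calls among these 42 were 6 higher and 0 lower in *3mlpa* at stage 1, beside 0.572 % and 0.325 % of all genes. At stage 2 they were 24 and 1, beside 7.68 % and 6.56 %, and at stage 3 they were 4 and 1, beside 0.637 % and 0.591 %. They were 1 and 0 at stage 4, beside 0.355 % and 0.641 %, and 1 and 3 of 41 tested at stage 5, beside 0.566 % and 1.34 %. The outputs list 17, 20, 11, 0 and 12 of the 42 at stages 1 to 5, so nothing is read from these counts. Their medians on the log2 scale were 0.55, 1.12, 0.49, -0.01 and -0.07 for stages 1 to 5 in order. Over growth 11 of the 42 rose and 15 fell in *3mlpa*, beside 20.7 % and 21.6 % of all genes. In 3MWT 15 rose and 8 fell, beside 20.7 % and 21.2 %.

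Nearest to the threshold, Glyma08g11300 at stage 1 was the listed member just inside it, with an adjusted p of 0.00769, and Glyma18g13105 at stage 1 was the listed member just outside it, with 0.0104. Among the pairs not listed, Glyma08g11300 at stage 2 was just inside and Glyma05g28310 at stage 2 just outside, with the values given above.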

How the data were processed

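RNA was sequenced from 30 pools of whole seeds (2 lines, 5 stages, 3 replicates), with the 6 libraries of a stage in 1 lane. The raw counts per gene were made and deposited by the authors, who aligned single-end reads to the Williams 82 assembly (Glyma.Wm82.a1.0) with TopHat 2.0.8, also listed as TopHat2 in the submitters' processing notes, and counted reads with HTSeq in Union mode, in which reads with several alignments are set aside. The 5 summary lines of HTSeq that end each table name no gene and were left out of library sizes and tests, the share of reads in no feature being 13.1 % to 29.7 % per library. Members were read from the authors' deposited agriGO outputs, which list gene identifiers per GO term. The deposited tables of normalized abundances and of DEGs, with the authors' fold changes and adjusted p-values from DESeq 1.12.1, were not used.

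The lines were compared within each stage with edgeR 4.0.16 in R 4.3.3 by the quasi-likelihood test after TMM normalization. Genes needed 10 or more counts summed over the 6 libraries, p-values were adjusted by Benjamini-Hochberg over all of these, and calls were made at 0.01. Stage 5 was compared with stage 1 in the 15 libraries of a line in the same way. To obtain an SE, the absolute log2 fold change was divided by the root of F. CPM uses TMM library sizes over all 30 libraries. Where a group had 0 counts, a fold is a bound against 3 counts over its 3 libraries, and with 1 to 3 counts a 95 % exact counting interval is given, both for counting error only. Depth limits members with few counts most. The scripts were tested on simulated data.

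The members, gene lists and tests were chosen with earlier results of these data known. Genes described were set by a rule that takes CESA, members called at 2 or more stages or in opposite directions and up to 3 per family with the largest differences or changes over growth, and the other members were added so that each is accounted for. Alternatives were DESeq2 1.42.0 (size factors and Wald test), other low count filters, a single fit over all 30 libraries, the replicate number as a block and leaving out each library. None of the 33 identifiers was found in the RefSeq gene table at hand, and gene coordinates, lengths and sequences were not used here.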

Additional observations from a re-analysis of the deposited data

Results flagged for a closer look

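In 6 members all 3 *3mlpa* libraries exceeded all 3 3MWT libraries at early stages and were below all of them at stage 5. Counting genes tested at every stage with *3mlpa* above at 1 or more of stages 1 to 3 and below at stage 5, these were 6 of 30 members, which is 20.0 %, beside 3.2 % of all genes. The change of the difference between stages was not tested, and the early values include the stages at which the members were listed. Most members were chosen by higher values in *3mlpa* at stages 1 to 3, so the choice largely met the early part of this count. The part at stage 5 alone, with *3mlpa* below in all libraries, held for 6 of the 33 members, beside 18.0 % of all genes. Nothing is read from the shares of 20.0 % and 3.2 %.

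For the cellulose synthase Glyma04g23530 the log2 fold change of *3mlpa* over 3MWT was 0.87, 1.45 and 0.85 at stages 1, 2 and 3, against -0.54 at stage 5. Glyma06g30860 had 0.72, 1.58 and 0.85 on this scale at the same early stages and -0.50 at stage 5, and Glyma09g05630 had 0.96, 1.97 and 1.13 at them and -0.42 at stage 5. In Glyma15g16900 the log2 fold changes of stages 1, 2 and 3 were 0.62, 2.18 and 1.28, against -0.47 at stage 5. Glyma06g06870, whose lines overlapped at stage 3, had 0.92 and 1.68 at stages 1 and 2 and -0.87 at stage 5.

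The other member of this kind was the XET Glyma05g26960, with log2 fold changes of 0.72 and 0.37 at stages 1 and 2 and -0.30 at stage 5. None of the 6 was called at stage 5 by edgeR, with unadjusted p under 0.05 in all 6, whereas DESeq2 called Glyma04g23530 (adjusted p = 0.000927) and Glyma06g06870 (adjusted p = 8.43e-05) lower, and edgeR with the replicate number as a block called Glyma06g06870 (adjusted p = 0.00817). At that stage *3mlpa* replicate 3 had the lowest value of the *3mlpa* libraries in all 5 cellulose synthases and not in the XET, and without this library Glyma04g23530 and Glyma06g06870 were called lower in *3mlpa*, as given above.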

How the results depend on the processing

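The counts of calls at stage 2 were stable, with 15 to 22 members called higher in *3mlpa* under every alternative, and those at the other stages were not. With the DESeq2 Wald test, 17, 12, 5 and 6 members were called higher at stages 1, 3, 4 and 5, and 1 and 2 were called lower at stages 1 and 5. Of all genes, it called 2276 of 42451, 1464 of 40951, 717 of 39918 and 1145 of 39213 higher at stages 1, 3, 4 and 5. It called 1775 and 1839 of all genes lower at stages 1 and 5. When all 30 libraries shared 1 fit, 18, 10 and 2 members were called higher at stages 1, 3 and 4, and 1 and 0 were called lower at stages 1 and 2. Of the 45815 genes in that fit, 1936, 1742 and 560 were called higher at stages 1, 3 and 4. The genes called lower at stages 1 and 2 numbered 2408 and 1802. Without a low count filter 3 members were called higher at stage 4, beside 205 of 46200 genes. The causes were not tested. DESeq2 size factors in edgeR changed no call. Without 1 library, the range was 0 to 20 higher and 0 to 1 lower at stage 1, 15 to 19 and 0 to 2 at stage 2, 0 to 12 and 0 to 1 at stage 3, 0 to 5 and 0 to 1 at stage 4 and 0 to 7 and 0 to 2 at stage 5. Over growth it was 10 higher and 14 lower in *3mlpa* in every such fit, and 11 to 12 higher and 7 to 8 lower in 3MWT. A fit without 1 library leaves a group of 2. Between the lines, the calls over all genes moved with the library left out too, as given above.

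With the replicate number as a block, 0 members were called higher at stage 1 and 1 at stage 3, 0 were called lower at stage 2 and 1 at stage 5. Of all genes, 7 of 42457 were called higher at stage 1 and 131 of 40971 at stage 3. Called lower were 1176 of 42269 at stage 2 and 451 of 39253 at stage 5. The numbers did not pair the samples. Over the 15 pairs of libraries with the same number, the correlation of deviations from the group means was -0.32 to 0.33, over 0.1 in only 2, and 4 of the 15 *3mlpa* libraries correlated best with their own number.

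For single members, leaving out a library kept the direction and the side of the threshold in 833 cases, added a call in 41 and lost one in 68. The other alternatives did so in 848, 70 and 20 cases, and no alternative turned a direction of a call.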
